A study of Trichoderma reesei QM6a with 4 samples.

Results

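The 216 genes described here were the well-measured genes of Trichoderma reesei whose signal was higher in the copper-accumulating mutant AT01 than in its wild type. They were chosen from the array values themselves, out of 9127 genes. At least 50% of a gene's probes had to lie well above background on all 4 arrays, which 3686 genes met. The lowest AT01 value then had to exceed the highest wild-type value by 0.8 or more on a log2 scale, after quantile normalization and averaging over probes. This difference is called the gap. The members made up 5.86% of the well-measured genes, and a further 165 genes met the gap but not the probe requirement. Because the rule used the same contrast on the same arrays, the strain differences of members are a description and were not tested.

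Trichoderma reesei QM6a is a filamentous fungus grown for its secreted cellulases. Total RNA of mycelium was labelled with Cy3 and hybridised to one-colour Agilent arrays, 2 for AT01 and 2 for the wild type. Both strains had grown at 25 °C for 5 days, in rich YPD medium that contained 1 mM CuSO4, so no array shows either strain without added copper. The labels do not give the genetic change in AT01, how the mutant was made or whether a strain's arrays stem from different cultures. The spread between arrays may thus be technical, p-values measure that spread alone, and their number limits the precision of every value. RNA came from whole mycelium, in which more hyphae of one kind and more RNA per cell cannot be told apart.

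Copper is both a cofactor and a poison for fungi. High-affinity transporters bring it into the cell, small chaperone proteins hand it to copper enzymes, and metallothioneins, glutathione and the vacuole hold the surplus. Free copper also gives rise to reactive oxygen species and damages iron-sulfur proteins, so copper stress reaches well beyond dedicated copper proteins. A search of the gene symbols in the reference table used here found no metal handling gene on the array. That table gives no product descriptions, so the search could miss such genes. No member could thus be assigned to uptake, binding or export of copper. All 216 members matched a protein-coding locus of the QM6a reference by number, but only 2 had a gene symbol, of which tef2 is described here. The 214 without one are given by locus tag, without a role.

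Array brightness differed between the strains before any scaling. At the 75th percentile the processed signal reached 41.5 and 39.6 on the AT01 arrays, against 20.9 and 22.2 on the wild-type arrays. Values below are therefore quantile-normalized log2 signals averaged over the probes of a gene, unless stated otherwise. On this scale the 3470 well-measured genes outside the set had a median AT01 minus wild type difference of -0.08. The members' differences ran from 0.85 to 2.49 with a median of 1.21, or folds of 1.80 to 5.61. Of the 216, 177 were at least 2-fold higher and 12 at least 4-fold higher. The gap itself was at least 1 in 132 members, at least 1.5 in 31 and at least 2 in 6.

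**Figure D1:**
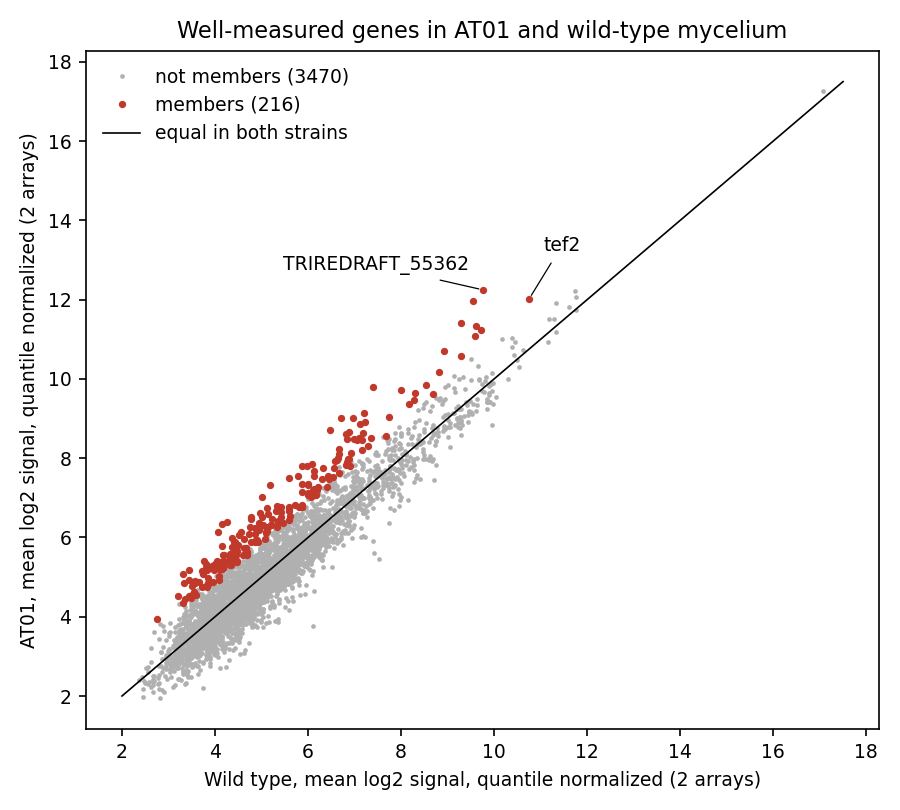
Mean quantile-normalized log2 signal of each well-measured gene in AT01 (vertical axis) against the wild type (horizontal axis), 2 arrays each. The 216 members (red) lie above the line of equal signal by construction, at AT01 levels of individual arrays from 3.92 to 12.35, and the other 3470 genes are grey.

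The 6 members whose gap was at least 2 were TRIREDRAFT_55362, TRIREDRAFT_56384, TRIREDRAFT_50104, TRIREDRAFT_80142, TRIREDRAFT_23292 and TRIREDRAFT_106554. TRIREDRAFT_55362 read 12.14 and 12.35 on the AT01 arrays, against 9.77 and 9.75 on the wild-type arrays, a 5.61-fold difference. TRIREDRAFT_80142 read 11.80 and 12.13 in AT01, against 9.61 and 9.48 in the wild type, a 5.35-fold difference. TRIREDRAFT_56384 read 9.73 and 9.86 in AT01, against 7.40 and 7.39 in the wild type, a 5.27-fold difference. In these 3 the arrays of a strain differed by far less than the strains did. TRIREDRAFT_50104 read 8.93 and 9.07 in AT01, against 6.71 and 6.72 in the wild type. TRIREDRAFT_23292 read 8.65 and 8.79 in AT01, against 6.44 and 6.53 in the wild type. TRIREDRAFT_106554 read 7.33 and 7.33 in AT01, against 5.11 and 5.26 in the wild type. These 3 were 4.88-fold, 4.73-fold and 4.44-fold higher in AT01. That the strains did not overlap in any of the 6 members follows from the rule.

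The same differences are visible before scaling, where they include the greater brightness of the AT01 arrays. The processed signal of TRIREDRAFT_55362, as a geometric mean over its 5 probes, was 5060 and 5144 on the AT01 arrays, against 732 and 785 on the wild-type arrays. That of TRIREDRAFT_56384 was 1012 and 1018 in AT01, against 126 and 137 in the wild type. Places in the order of brightness within an array need no scaling between arrays. TRIREDRAFT_55362 was at place 2 of the 9127 genes on both AT01 arrays, against places 43 and 40 on the wild-type arrays. TRIREDRAFT_80142 was at places 7 and 6 in AT01, against 53 and 57 in the wild type. The direction of these shifts follows from the rule, which was set on rank-based normalized values, so the places only show the size. They also depend on how strongly each gene's probes bind, so only their shift between arrays is read here.

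The next 14 members by gap, from 1.94 for TRIREDRAFT_46285 to 1.65 for TRIREDRAFT_76291, covered a wide range of signal. TRIREDRAFT_46285 read 11.27 and 11.53 in AT01, against 9.33 and 9.22 in the wild type. TRIREDRAFT_62100 read 11.28 and 11.36 in AT01, against 9.61 and 9.61 in the wild type. At the other end TRIREDRAFT_76291 read 4.99 and 5.15 in AT01, against 3.29 and 3.34 in the wild type, with 3 of 5 probes passing the background requirement. The bright and the dim members of this group thus showed folds of the same order, 4.36, 3.27 and 3.38. Between them came TRIREDRAFT_61134, TRIREDRAFT_2071, TRIREDRAFT_21330, TRIREDRAFT_120676, TRIREDRAFT_123795, TRIREDRAFT_77191, TRIREDRAFT_119956, TRIREDRAFT_68130, TRIREDRAFT_110088, TRIREDRAFT_79419 and TRIREDRAFT_27554. The widest spread within a strain among the 20 was in TRIREDRAFT_2071, whose wild-type arrays read 4.40 and 3.88, against 6.30 and 6.39 in AT01.

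**Figure D2:**
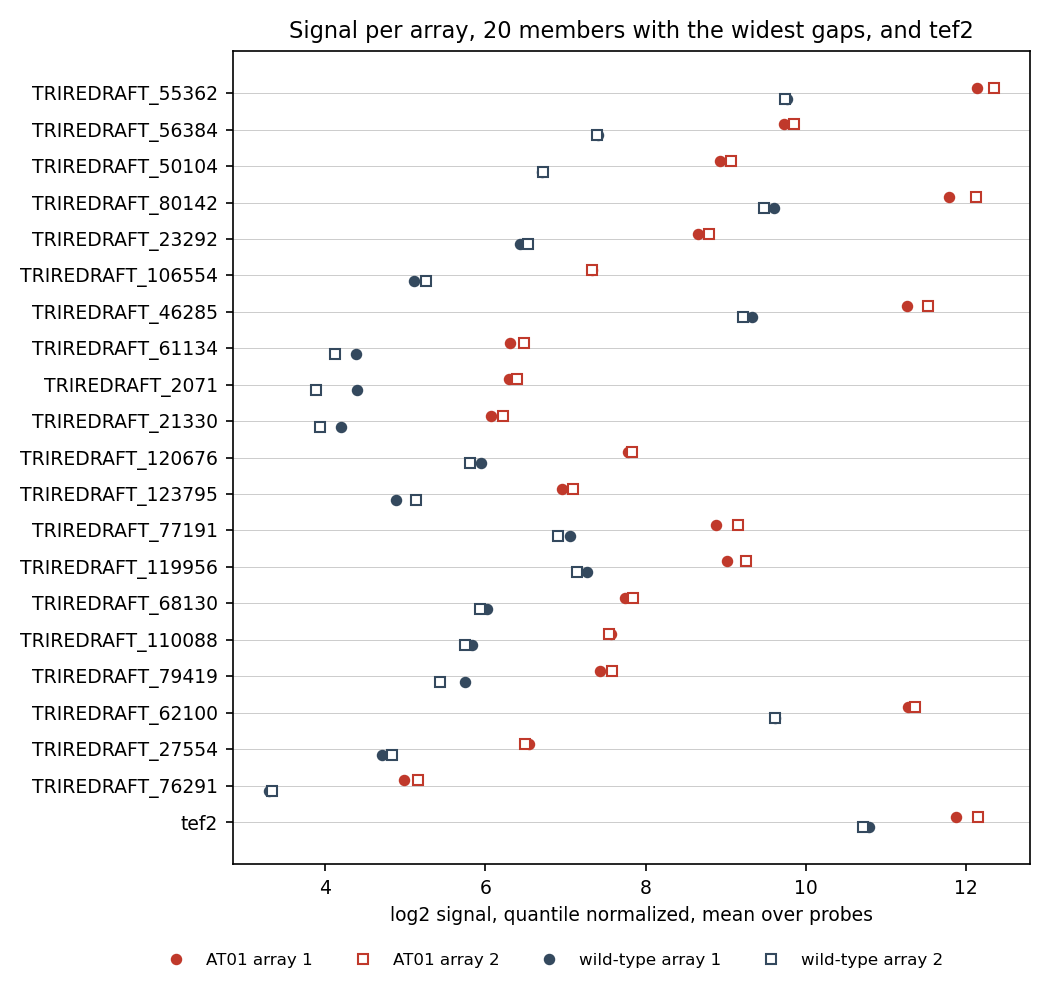
Quantile-normalized log2 signal (horizontal axis) on the 2 AT01 arrays (red) and the 2 wild-type arrays (dark blue) for the 20 members with the widest gap and for tef2. The strains are separated in each row by construction, and the wild-type arrays are farthest apart in TRIREDRAFT_2071, at 4.40 and 3.88.

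The member tef2 carries the symbol of a translation elongation factor gene. It was among the strongest signals of both strains, at 11.88 and 12.16 in AT01, against 10.79 and 10.71 in the wild type, a 2.41-fold difference. Its place in the order of brightness was 5 on both AT01 arrays, against 11 on both wild-type arrays. Differences by probe ran from 0.62 to 1.60, and all 5 probes were higher on both AT01 arrays. The size of the difference depended on the scaling: with each array's 75th percentile subtracted in place of quantile normalization it was 0.55 ± 0.13 (SE of the limma fit, n = 2 arrays per strain). Its call in that fit was lost without AT01 array 2 (0.45) or either wild-type array (0.57 and 0.52), and with the median over probes (0.55) or the brightest probe (0.71). The elongation factor gene tef1a, also very bright, read 11.82 and 12.03 in AT01, against 11.36 and 11.28 in the wild type. Its gap of 0.46 was too small for the set, and with 75th percentile scaling its difference was -0.11.

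No member was found among 40 ribosomal protein genes, 6 proteasome genes, 4 well-measured glycoside hydrolase genes, 2 well-measured hydrophobin genes, 2 chaperone and folding genes and the 1 well-measured oxidative stress gene. With 5.86% of all well-measured genes in the set, counts of 0 in the lists of 6 genes or fewer are close to that share. The ribosomal list is longer and its genes are bright, with a median at the 98.9th percentile of all genes. In the brightest decile of well-measured genes 12.5% were members. The 0 of that list was not tested, and nothing is read from these counts. With 75th percentile scaling limma called 35 of the 40 ribosomal protein genes lower in AT01 (Benjamini-Hochberg adjusted p under 0.05). On that scale 30.4% of all 8018 genes tested were called lower. The median difference of the ribosomal protein genes was -0.77 on that scale and -0.29 after quantile normalization. All genes tested had a median of -0.23 on the first, and all well-measured genes -0.05 on the second. In the brightest decile of well-measured genes the medians were -0.33 and 0.04, so the size depended on the scaling. The other scalings were not examined for this list. In all, 162 of the well-measured genes had a symbol and 2 of them were members, beside the 5.86% of all well-measured genes. Spore-associated genes were looked for as a sign of other cell types, and hfb2, a hydrophobin gene linked to sporulation, was the gene found by symbol. It read 2.46 and 2.40 in AT01, against 2.44 and 2.34 in the wild type, with 1 of 4 probes well above background on all arrays.

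Across the whole table, limma was fitted to 75th percentile-scaled values of 8018 genes, with a threshold of 0.05 on the Benjamini-Hochberg adjusted p. This called 1122 genes higher in AT01, 14.0%, and 2436 lower, 30.4%. Without AT01 array 2 the counts were 559 higher and 1102 lower. Among the well-measured genes 17.3% were called higher. All 216 members were among the calls, from which nothing is read since the rule used this contrast. The fitted differences of members ran from 0.50 to 2.12 with a median of 1.12, beside a median of -0.23 over all genes tested. With quantile normalization the median over all genes was -0.02, and 1127 genes were called higher and 796 lower.

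How far the scales differed depended on brightness. In the 72 brightest members the median difference was 1.35 after quantile normalization and 1.03 with 75th percentile scaling. In the 72 dimmest the medians were 1.14 and 1.13. The brightest members shrank most: TRIREDRAFT_55362 differed by 2.49 on the first scale and by 1.84 ± 0.12 on the second, and TRIREDRAFT_62100 by 1.71 and 1.11 ± 0.12. For TRIREDRAFT_81536 and TRIREDRAFT_81007, also among the brightest in AT01, the fitted differences were 0.88 ± 0.14 and 0.88 ± 0.13 (SE, n = 2 arrays per strain). TRIREDRAFT_81536 read 11.05 and 11.42 in AT01, against 9.79 and 9.64 in the wild type. TRIREDRAFT_81007 read 10.93 and 11.21 in AT01, against 9.68 and 9.51 in the wild type.

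Members were spread unevenly over the range of signal. Well-measured genes were divided into 10 deciles by their mean over the 4 arrays. In the dimmest decile 1 of 369 genes was a member, 0.271%, and in the brightest 46 of 369, 12.5%. The mirrored rule, with wild-type arrays above AT01 arrays by 0.8 or more, found 98 genes, or 2.66% of the well-measured genes. Their share was 4.07% in the dimmest decile and 2.17% in the brightest. Among the 20 genes with the highest AT01 mean 7 were members, against 1 among the 20 with the highest wild-type mean. The 7 were TRIREDRAFT_55362, tef2, TRIREDRAFT_80142, TRIREDRAFT_46285, TRIREDRAFT_62100, TRIREDRAFT_81536 and TRIREDRAFT_81007, and the 1 was tef2. These shares are set on the scale that chose the members, and brightness moved with both, so its part in them was not tested.

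**Figure D3:**
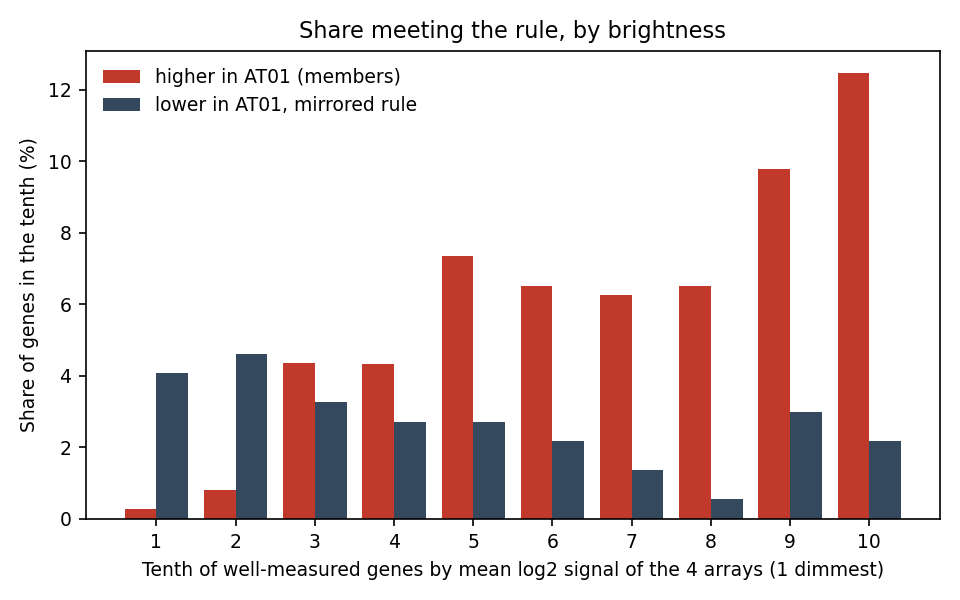
Share of well-measured genes (vertical axis, %) that met the rule for higher signal in AT01 (red, the members) or the mirrored rule for lower signal (dark blue), by decile of mean log2 signal over the 4 arrays. The members' share was 0.271% in the dimmest decile and 12.5% in the brightest.

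Members were close in their median replicate spread to other well-measured genes. The rule acts against wide spreads, since the gap is taken between the nearest arrays of the strains, so this is a description only. The largest spread was 0.43 in members against 1.46 in the others within AT01, and 0.85 against 1.66 within the wild type. The arrays of a strain differed by a median of 0.12 in AT01 and 0.10 in the wild type, beside 0.12 and 0.11 in the well-measured genes outside the set. The largest spread within AT01 was that of TRIREDRAFT_119816, at 8.38 and 8.82, against 6.95 and 6.69 in the wild type. The largest within the wild type was that of TRIREDRAFT_23208, which read 5.74 and 5.76 in AT01, against 4.78 and 3.94 in the wild type, nearly as wide as its gap of 0.96. AT01 array 2 read above AT01 array 1 in 193 members, 89.4%, beside 63.0% of the other well-measured genes. The lower AT01 value, which entered the rule, was therefore mostly that of array 1. In the wild type, array 2 read above array 1 in 36.6% of members and 44.9% of the others.

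Most genes on the array had 5 probes, which allowed members to be followed probe by probe. The members had 911 probes well above background on all 4 arrays, and 868 of these, 95.3%, read higher on both AT01 arrays than on both wild-type arrays, beside 28.7% of the 13287 such probes of other well-measured genes. In 174 members every such probe did so. Averages over probes chose the members, so these shares describe agreement within genes only. The probes of TRIREDRAFT_55362 were close to each other, with differences from 2.34 to 2.64. TRIREDRAFT_120676 ran from 1.55 to 2.17 and TRIREDRAFT_110088 from 1.51 to 2.03. Over probes well above background only, the median distance between a member's highest and lowest probe difference was 0.68, beside 0.57 in the others.

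In 27 members at least 1 well-measured probe was lower in AT01 on average, and in 20 of them it was the brightest probe of the gene. TRIREDRAFT_77191 is the clearest case among the 20 widest gaps. Its brightest probe read 11.92 and 12.32 in AT01, against 12.35 and 12.43 in the wild type, while its other 4 probes were higher in AT01 by 1.62 to 3.22. TRIREDRAFT_106554 had 3 probes with differences of 2.49 to 3.19 and 1 with 0.19. In TRIREDRAFT_2071 the differences by probe ran from 0.35 in the brightest to 3.44 in a probe that was not well above background on all arrays. In these genes the average thus stands for unequal differences between probes. In 11 members the mean difference over well-measured probes alone was below 0.8. TRIREDRAFT_107475, at the edge of the rule, was the 1 member with no well-measured probe above the wild type: its 2 such probes differed by -0.39 and -0.03, and its place in the set came from 2 dim probes that differed by 2.10 and 2.01.

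**Figure D4:**
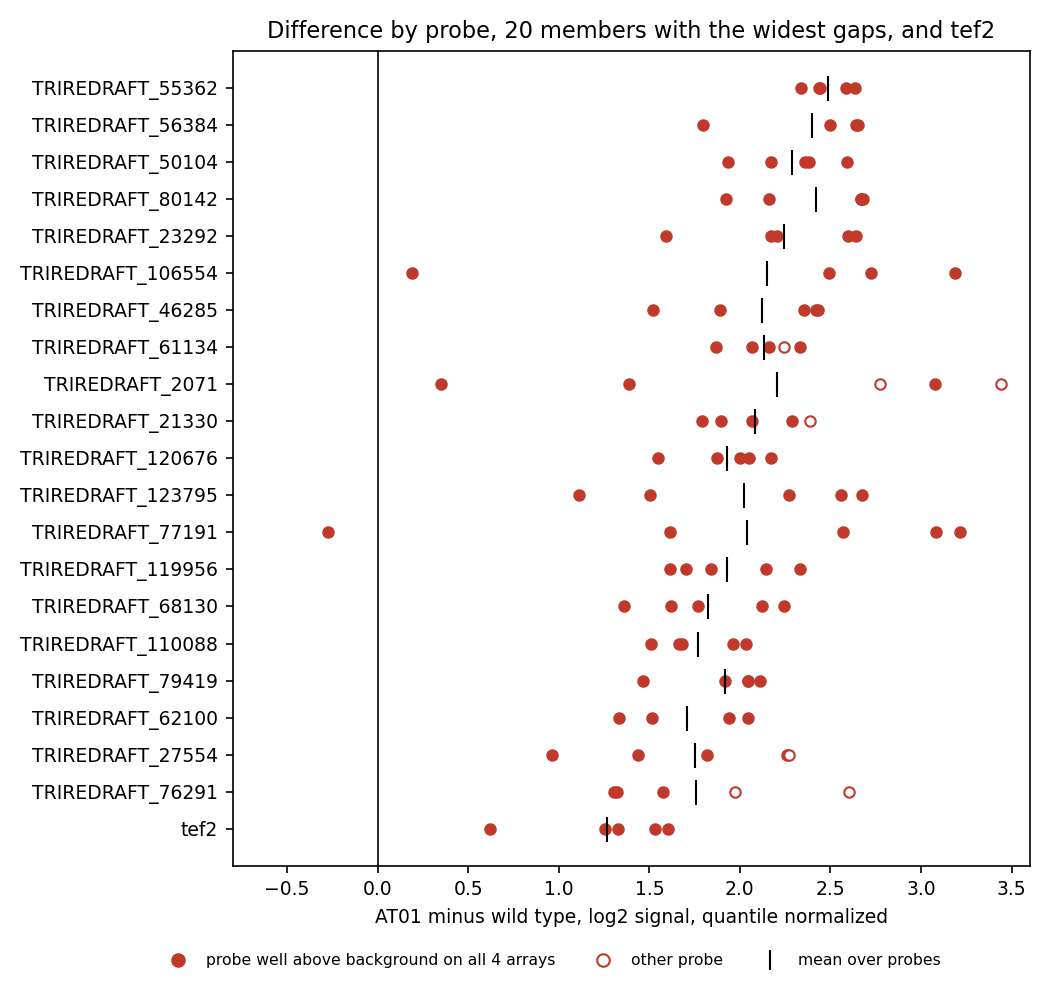
AT01 minus wild type difference in quantile-normalized log2 signal (horizontal axis) for each probe of the 20 members with the widest gap and of tef2; filled points were well above background on all 4 arrays and black bars are means over probes. TRIREDRAFT_77191 has 1 probe at -0.27 and 4 from 1.62 to 3.22, while the probes of TRIREDRAFT_55362 lie between 2.34 and 2.64.

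Probe names fall into 2 design series, and a gene's probes all came from one of them in the members. Of the 2772 well-measured genes of the larger series 195 were members, 7.03%, and of the 914 of the smaller series 21 were, 2.30%. The genes lower in AT01 by the mirrored rule were split the other way, with 1.88% in the larger series and 5.03% in the smaller. Outside the set the median difference was -0.01 in the larger series and -0.29 in the smaller. The probe design thus moved with the strain difference, and its part in the makeup of the set was not tested. All 21 members from the smaller series had 4 probes, among them TRIREDRAFT_56384, TRIREDRAFT_106554 and TRIREDRAFT_62100.

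The position of a gene was not part of the rule. In the order of loci in the reference, 26 members stood directly beside another member, and 45, or 20.8%, had another member with at most 2 loci between, in 21 groups. In the mirrored set the shares were 6.19% and 12.4% of the genes with a place in that order. That set is smaller, so the shares cannot be set against each other. Of the well-measured genes that were not members, 189 also stood directly beside a member, and 3255 did not. How many members would lie this close by position alone was not tested, so the counts of neighbouring members are a description only. Of the 21 groups 3 held 3 members and 18 held 2. Well-measured genes directly beside a member, themselves not members, had a median difference of 0.09 (189 genes), beside -0.09 in the 3255 that were not beside one. In 47.1% of the 189 both AT01 arrays lay above both wild-type arrays, against 30.8% of the 3255. The share was 35.6% of all well-measured genes, which include the members, where it holds by the rule. Of the dimmer genes beside a member 15 of 211, 7.11%, met the gap of 0.8, against 2.87% of 5199 others. These differences between loci beside a member and others were not tested either.

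One run of 3 adjacent members comprised TRIREDRAFT_123795, TRIREDRAFT_123797 and TRIREDRAFT_68728. TRIREDRAFT_123795 read 6.96 and 7.10 in AT01, against 4.88 and 5.13 in the wild type. TRIREDRAFT_123797 read 5.61 and 5.71 in AT01, against 4.23 and 4.73 in the wild type. TRIREDRAFT_68728 read 4.46 and 4.62 in AT01, against 3.51 and 3.50 in the wild type. Folds thus declined along the run, from 4.06 through 2.27 to 2.05, and the next locus, TRIREDRAFT_51946, met the gap at 0.83 with too few probes above background, 2 of 5. On the other side the nearest 4 loci differed by -0.22 to -0.01. In the wild type TRIREDRAFT_123797 was uneven between arrays, and its well-measured probes differed between strains by 0.12 to 2.41.

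A second run of 3 held TRIREDRAFT_107475, TRIREDRAFT_62100 and TRIREDRAFT_121877, with folds of 1.90, 3.27 and 1.82. TRIREDRAFT_121877 read 5.94 and 5.96 in AT01, against 5.06 and 5.11 in the wild type. The loci directly outside the run, TRIREDRAFT_121875 and TRIREDRAFT_62130, were not well measured and differed by -0.16 and -0.17. The call of TRIREDRAFT_107475 as a member rests on the dim probes described above.

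The third group of 3 was not contiguous. TRIREDRAFT_58976 read 7.25 and 7.31 in AT01, against 6.44 and 6.36 in the wild type. TRIREDRAFT_58636 read 4.38 and 4.66 in AT01, against 2.98 and 3.43 in the wild type. TRIREDRAFT_121082 read 7.74 and 7.74 in AT01, against 6.20 and 6.43 in the wild type. Between the first and the second lay TRIREDRAFT_105701 at -0.46 and TRIREDRAFT_58549 at 1.61, both with most probes near background. Before the group, beyond 1 further locus, lay 2 that were lower in AT01, though neither met the mirrored rule. TRIREDRAFT_58640 read 2.90 and 3.02 in AT01, against 3.70 and 3.95 in the wild type, and TRIREDRAFT_58734 differed by -0.82. Higher and lower loci thus lay within a few genes of each other here.

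The pairs with the widest gaps were TRIREDRAFT_80142 with TRIREDRAFT_41987 and TRIREDRAFT_60422 with TRIREDRAFT_106554, which stood directly beside each other in the reference order. TRIREDRAFT_41987 read 6.51 and 6.67 in AT01, against 5.18 and 5.08 in the wild type, a 2.74-fold difference. TRIREDRAFT_60422 read 7.31 and 7.38 in AT01, against 6.04 and 5.96 in the wild type, a 2.55-fold difference. Around the first pair the nearest 8 loci differed by -0.51 to 0.31. Before the second pair came TRIREDRAFT_3568, higher by 1.23 with 1 of 5 probes well above background on all arrays, and TRIREDRAFT_77234 at 0.74 with 1 of 5.

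**Figure D5:**
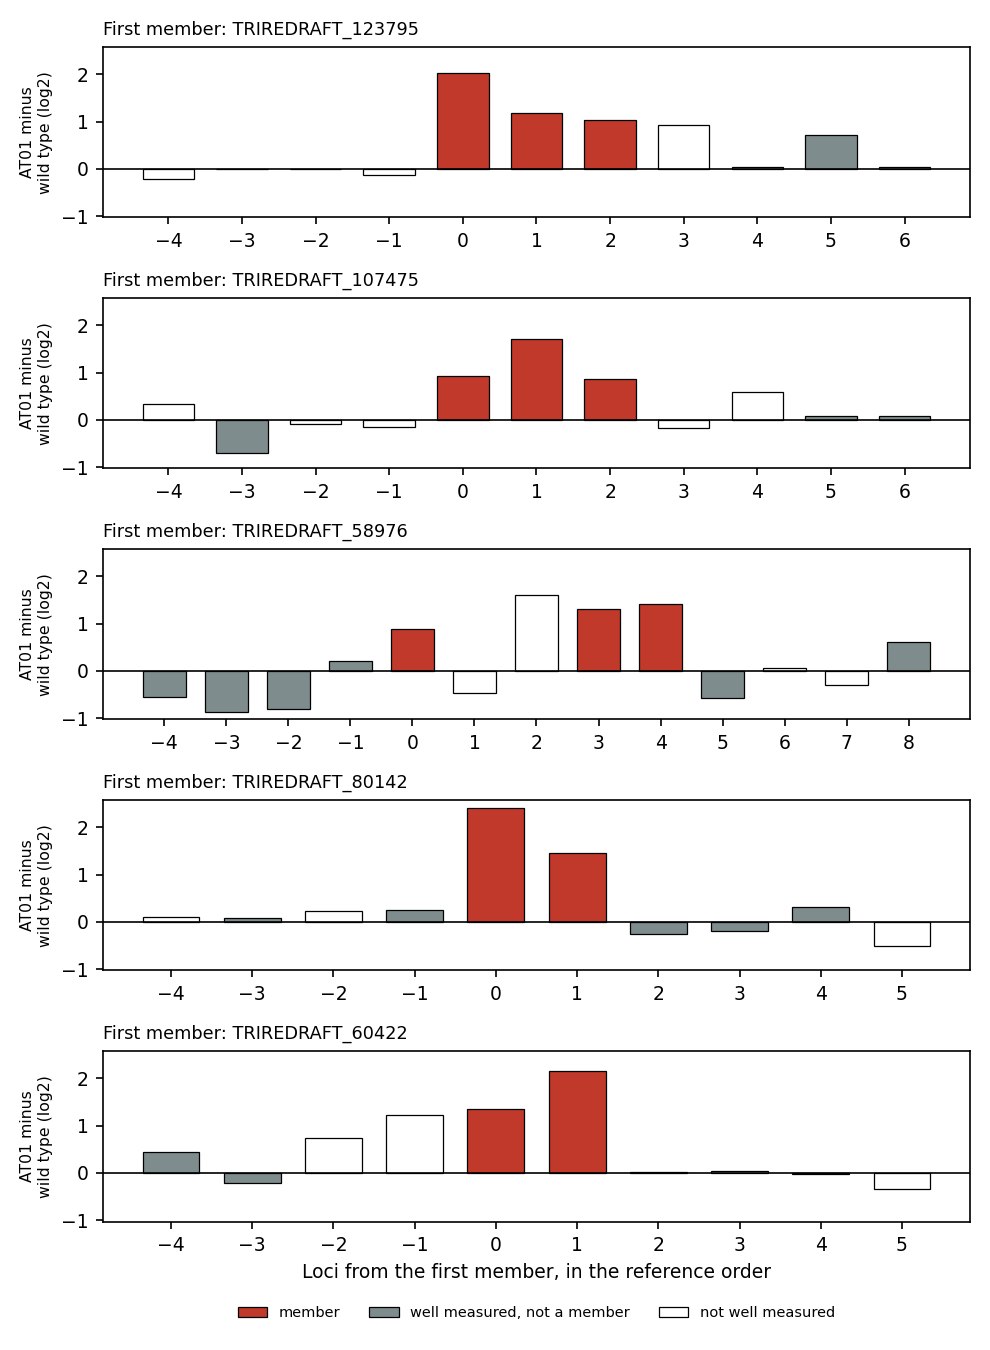
AT01 minus wild type difference in quantile-normalized log2 signal (vertical axis) for loci around 5 groups of members, by number of loci from the first member in the reference order; red bars are members, grey bars other well-measured genes and white bars genes that were not well measured. The runs starting at TRIREDRAFT_123795 and TRIREDRAFT_107475 have 3 adjacent members, and TRIREDRAFT_58976 is followed by 2 loci outside the set.

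The set has no natural edge at 0.8. The members nearest inside were TRIREDRAFT_107475, TRIREDRAFT_119731 and TRIREDRAFT_107132, each with a gap of 0.80. TRIREDRAFT_119731 read 6.94 and 7.18 in AT01, against 6.14 and 5.84 in the wild type, and TRIREDRAFT_107132 read 5.06 and 5.01 in AT01, against 4.21 and 3.98 in the wild type. The nearest outside, TRIREDRAFT_75342 and TRIREDRAFT_103668 at 0.80 and TRIREDRAFT_78423 at 0.79, differed from them by less than the median spread between arrays of a strain.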

How the data were processed

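Intensity values were deposited as Agilent Feature Extraction output (version 10.5.1.1, per the submitters' processing notes): background-subtracted processed signals with flags set to 0 or 1, which per the file headers score each spot as well above background, saturated or outlying. The 4 file headers carry one scan time. The authors' deposited table holds log2 values, as their range shows, and its normalization is not given in the sources used here. Its strain differences lay close to those after quantile normalization. They were 2.49 on both for TRIREDRAFT_55362 and 2.12 on both for TRIREDRAFT_46285, and 2.03 against 2.13 for TRIREDRAFT_61134. The array holds 43565 probes outside controls. Of the deposited table, 28201 probes were matched to these, so its gene averages can rest on fewer probes. Probe sequences and a genome were not used here, so no sequence is shown, and coordinates are left out because the build behind the array is not stated.

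Members were found on quantile-normalized log2 processed signal. Strains were compared with limma 3.58.1 in R 4.3.3 (lmFit, eBayes, Benjamini-Hochberg) on log2 processed signal minus each array's 75th percentile, without outlying spots (13 to 117 per array; no spot was saturated), keeping genes if 1 probe or more was flagged well above background on each array of either strain. The fit was tested on simulated data. Array genes were matched to QM6a v2.0 locus tags by number (9070 of 9127), and the 40 matched ribosomal protein genes had a median brightness at the 98.9th percentile. The members and lists were chosen with earlier results of these data known. Named are the 20 widest gaps, the 5 brightest in each strain, members with a symbol (1 of which is not reported here), the 5 largest groups of neighbours (ties broken by gap, a choice made after seeing the data) and the 3 genes on each side of 0.8; others were named after their values were seen. Protein identity and promoter motifs, planned as further descriptions, were not analysed here. The median spot signal replaced the mean spot signal in the normexp alternative.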

Additional observations from a re-analysis of the deposited data

How the results depend on the processing

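All 216 were called higher with quantile normalization, cyclic loess, the 75th percentile over detected probes, a common lower limit, the filter on probes well above background and the authors' deposited table. The count was 211 with normexp, 191 with the median over probes, 175 with the brightest probe, where 28 members turned negative, and 210 to 214 with an array left out. Over all genes 1122 were called higher, 652 with the median over probes and 559 to 912 with an array left out, lowest without AT01 array 2. Lower calls numbered 2436, 1102 to 1664 with an array left out, again lowest without AT01 array 2, 791 with the median over probes, 777 with cyclic loess, 796 with quantile normalization, 1181 in the authors' deposited table, 1198 with the common lower limit, 1299 with the probe filter, 1568 with detected probes and 4367 with normexp. Each fit without an array has fewer arrays, and for the median the cause was not tested. Higher calls over all 8018 genes tested numbered 818 with normexp, 797 with the brightest probe, 1187 with cyclic loess and 1320 with detected probes. They numbered 1127 with quantile normalization and 1123 with the common lower limit. With the probe filter 788 of 3686 genes were called higher, and with the authors' deposited values 1191 of 8017. Same-numbered arrays of the strains did not deviate together (correlation 0.01 across genes), and with the replicate block 1130 genes and 216 members were called higher. The rule itself found 132 genes with a gap of at least 1 and 113 with all probes well above background, both subsets of the members by construction. It found 179 with 75th percentile scaling (81.5% of the members shared), 232 with cyclic loess (99.1% shared) and 245 with the median over probes (81.9% shared). It found 247 with the brightest probe (73.1% shared) and 215 in the authors' deposited table (96.3% shared). With well-measured probes alone, an alternative chosen after seeing the data, it found 198, of which 187 were members (86.6% shared). All these settings use the arrays and the contrast that chose the members, so agreement in any of them is not a separate check. Quantile normalization and the probe filter are part of the rule itself, and the deposited table lay close to the quantile-normalized scale. With the brightest probe TRIREDRAFT_77191 (-1.07), TRIREDRAFT_107475 (-0.77) and TRIREDRAFT_119731 (-0.57) reversed. The call of tef2 ended with the median over probes (0.55), the brightest probe (0.71) and without wild-type array 1 (0.57), wild-type array 2 (0.52) or AT01 array 2 (0.45). Calls also ended for TRIREDRAFT_2071 (0.15) and TRIREDRAFT_123797 (0.07) with the brightest probe, for TRIREDRAFT_123797 (1.22), TRIREDRAFT_81536 (0.84) and TRIREDRAFT_107132 (0.75) with the median over probes, and for TRIREDRAFT_68728 (0.12) and TRIREDRAFT_107475 (0.08) with normexp. Dim genes near background and 2 arrays per strain limit the rest.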
